A study of Homo sapiens with 5 samples.

Results

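Keratin mRNAs were followed through 5 RNA sequencing libraries from MCF10A, an established, non-tumorigenic line of human mammary epithelial cells. The members were the protein-coding genes whose symbol was KRT followed by a number and, in a few, the letter A, B or C, which leaves out the keratin-associated proteins and the keratin pseudogenes. The rule took 55 of the 56632 gene identifiers in the tables, 29 of them type I and 26 type II keratins. Of these, 14 averaged 1 FPKM or more (a fragment count scaled by transcript length and library size) over the 5 libraries and were analysed, 6 of type I and 8 of type II.

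Keratins build the intermediate filaments of epithelial cells, and every filament pairs a type I with a type II chain. KRT5 with KRT14 is the pair of basal cells, KRT8 with KRT18 that of simple epithelia, and KRT6, KRT16 and KRT17 are known from stressed and fast-growing epithelium. In the mammary gland, KRT5, KRT14 and KRT17 mark the basal layer, while KRT7, KRT8, KRT18 and KRT19 mark the luminal layer.

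In RNA immunoprecipitation (RIP), an antibody pulls a protein out of a lysate together with the RNA that comes with it, and that RNA is sequenced beside the input, RNA that went through no immunoprecipitation. The FLAG-CBFB arm held 1 input and 1 RIP from a stable MCF10A derivative that expressed CBFB with a FLAG tag, taken with a FLAG antibody. The hnRNPK arm held 1 input and 2 RIP repeats from parental MCF10A, taken with an antibody to hnRNPK. CBFB is the partner subunit of the RUNX transcription factors, and hnRNPK is an RNA-binding protein with KH domains that prefers C-rich RNA. All cells were at a low passage and received no treatment, and the labels name no sex, age or clone, nor say whether the FLAG-CBFB cells still held their own CBFB gene. No mock immunoprecipitation was analysed here, and nothing in the labels says that the repeats came from separate cultures, so their spread may be technical.

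The libraries held 69786576 to 106855647 counts. Genes of the mitochondrial genome took 4.27% of them in the FLAG-CBFB cell input, 11.2% in the parental input, 62.2% in the RIP of FLAG-CBFB, and 84.5% and 86.6% in the hnRNPK RIPs. FPKM is scaled to the reads of all genes, mitochondrial ones included, and 92.7% of the analysed genes had a lower FPKM in the FLAG-CBFB RIP than in its input. Enrichment was accordingly centred: it was the log2 of FPKM plus 1 in a RIP minus that in its own input, less the mean of this difference over the 11764 genes that averaged 1 FPKM or more. A value above 2, a 4-fold enrichment, was called enriched. Centring adds the same amount to every gene of a RIP, so that a gene listed at 0 in all libraries, such as PGR, takes 1.34 on the FLAG-CBFB scale and 2.64 on the hnRNPK scale. For keratins of a few FPKM or less (KRT80, KRT14, KRT83, KRT10 and KRT16), the centred value is therefore given beside one on counts alone, such as CPM (counts scaled to a common total).

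The cells carried epithelial and basal markers, with KRT14 apart, and some of the luminal ones. In the inputs of FLAG-CBFB cells and of parental cells, TP63 was at 60.4 and 19.7 FPKM, ITGB4 at 413 and 369.6, and CDH1 at 92.9 and 77.0, all markers of epithelial cells. Of the markers of other cells, COL1A2 and CDH5 were listed at 0 in every library, and PDGFRB, PTPRC and CD3E were at 0.08 FPKM or less. COL1A1, a fibroblast collagen, was at 1.08 and 1.77 FPKM in the inputs, on 310 and 506 counts. KRT14 was at 6.78 and 1.81 FPKM in the inputs, far under its partner KRT5 at 1974 and 1639.8. Of the luminal markers, KRT8 and KRT18 were high, and GATA3 was at 6.17 and 6.4 FPKM in the inputs, on 1582 and 1036 counts. ESR1 was at 0.71 and 0.67 FPKM there, on 438 and 285 counts. KRT19 had 30 and 11 counts in the inputs, and PGR was listed at 0.

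KRT5, the type II keratin of basal cells, had the most keratin counts in all 5 libraries. It made up 35.3% of the keratin counts in the FLAG-CBFB cell input and 27.8% in the parental input. Its part was 53.9% in the RIP of FLAG-CBFB, and 66.2% and 76.3% in the hnRNPK RIPs, so that each RIP held a larger part of KRT5 than its input did.

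**Figure D1:**
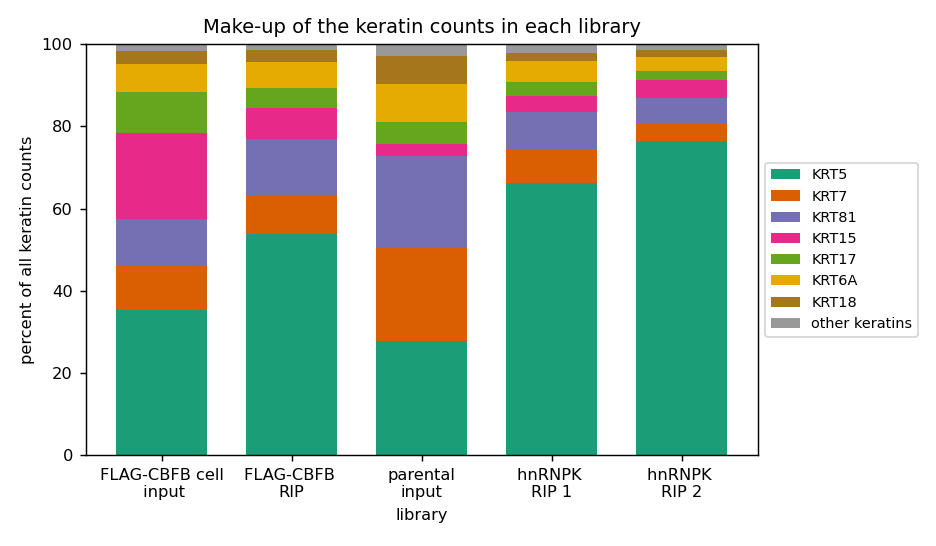
Stacked bars give the percent of all keratin counts that fell on each named keratin in each of the 5 libraries, 1 library a bar. The KRT5 part was 35.3% and 27.8% in the inputs and 53.9% to 76.3% in the RIPs.

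Keratins as a whole took 1.25% of the counts in the FLAG-CBFB cell input and 0.529% in the RIP of FLAG-CBFB, and 1.36% in the parental input against 0.129% and 0.142% in the hnRNPK RIPs. Of the counts outside the mitochondrial genome, the shares were 1.30% and 1.40% in the FLAG-CBFB arm. They were 1.53% in the parental input against 0.832% and 1.06% in the hnRNPK RIPs. Keratin mRNA thus kept about its share of non-mitochondrial reads in the FLAG-CBFB RIP, with 1 library an arm, and had a smaller share in both hnRNPK RIPs. On that scale the median analysed gene was at 0.728 of its input with FLAG-CBFB, and at 0.362 and 0.367 with hnRNPK. The keratin total therefore did not fall beyond the median gene in the hnRNPK RIPs. KRT5 made up 66.2% and 76.3% of that total there.

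**Figure D2:**
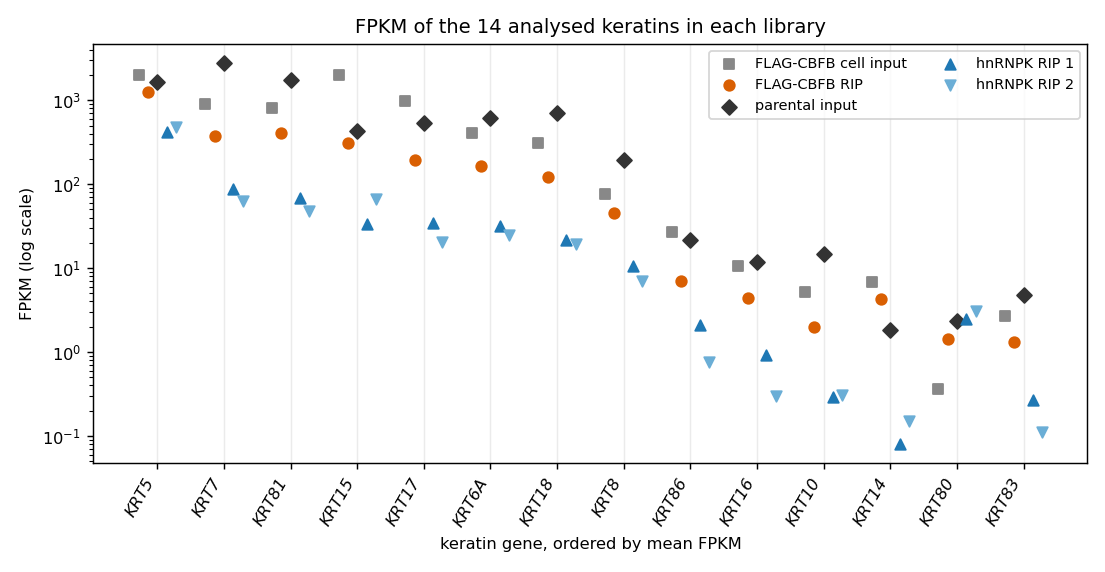
Points give the FPKM (log axis) of each of the 14 analysed keratins in each of the 5 libraries, ordered by mean FPKM. For 13 of the 14, each RIP lies under its own input, while KRT80 lies above its own input in all 3 RIPs.

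KRT80 was the keratin enriched in both kinds of RIP, and the only one above 2 in either. Its FPKM was 0.36 in the FLAG-CBFB cell input and 1.42 in the RIP of FLAG-CBFB, and 2.37 in the parental input against 2.49 and 3.09 in the hnRNPK RIPs. These rested on 141, 472, 611, 944 and 1028 counts. KRT80 is a type II keratin of differentiating epithelia, and it had the lowest FPKM of the analysed keratins in the FLAG-CBFB cell input. All 3 RIPs were above their own input, which no other analysed keratin showed.

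The centred enrichment of KRT80 was 2.17 in the FLAG-CBFB RIP, with no replicate, and 2.66 and 2.96 in the hnRNPK RIPs, a mean of 2.81 ± 0.21 (SD, n = 2). RUNX1, whose protein is a partner of CBFB, stood at 2.13 and 3.09 ± 0.28 on the same scale, and GAPDH, a glycolytic enzyme, at -0.18 and -2.69 ± 0.04. KRT80 was higher than 96.2% of the analysed genes in the RIP of FLAG-CBFB and than 95.6% in the hnRNPK RIP. Without centring its log2 ratios were 0.83 for FLAG-CBFB and 0.16 for hnRNPK. Enrichment above 2 was seen in 4.37% of all analysed genes in the RIP of FLAG-CBFB and in 8.2% in the hnRNPK RIP, and 1 of 14 keratins in each is near that background.

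In CPM outside the mitochondrial genome and with no pseudocount, a scale chosen after the data were seen, KRT80 was 9.96-fold higher in the FLAG-CBFB RIP than in its input (95% counting interval 8.26 to 12.03). It was 6.001-fold (5.42 to 6.64) and 8.59-fold (7.77 to 9.49) higher in the hnRNPK RIPs than in the parental input. The median analysed gene was at 0.728, 0.362 and 0.367 of its input on this scale. The intervals cover counting error alone and say nothing of the spread between immunoprecipitations.

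The FLAG-CBFB value of KRT80 turned on which input was used. The inputs differed, at 0.36 FPKM in FLAG-CBFB cells and 2.37 in parental cells, and against the parental input the centred enrichment was 0.89. Against the FLAG-CBFB cell input, the hnRNPK enrichment was 4.09. With FPKM rescaled without the mitochondrial genes before the pseudocount, the FLAG-CBFB value was 1.27 and the hnRNPK value 2.58.

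The hnRNPK comparison was the only one with a repeat and was tested with edgeR's quasi-likelihood test on rounded expected counts, with Benjamini-Hochberg adjustment over 16639 genes. KRT80 was higher in the hnRNPK RIPs by 4.03 on the log2 scale (SE 0.45, adjusted p = 5.36e-18). That test took its spread from the 2 RIP repeats, as a trend over all genes, since there was 1 input. Its scale (TMM) placed the median analysed gene at -0.29, against -0.11 on the centred scale, so each value is best read against that of the median gene.

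Of the 55 keratins, 19 passed the filter on low counts: the 14 analysed ones, KRT6B, KRT6C and 3 weaker ones. In the hnRNPK RIPs, 3 of the 19 were higher than in the parental input, against 21.9% of all genes tested, and 5 were lower, against 15.8%. The 3 higher ones were KRT80, KRT5 and KRT15, and the 5 lower ones KRT7, KRT8, KRT10, KRT18 and KRT81. At an unadjusted p under 0.05 there were 9, the further one being KRT6A.

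**Figure D3:**
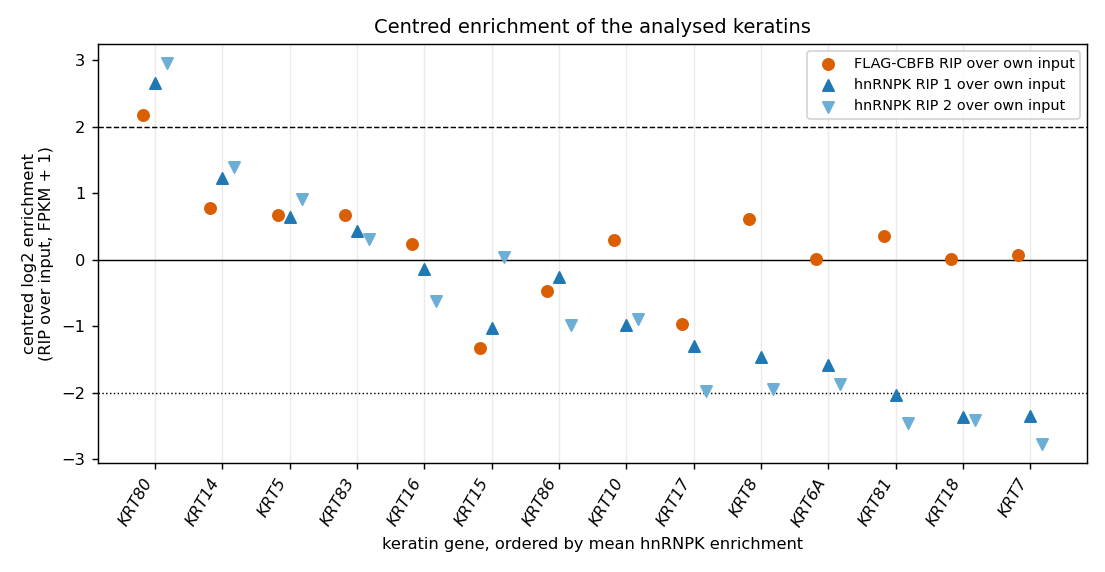
Points give the centred log2 enrichment of each analysed keratin in the FLAG-CBFB RIP (1 library) and in each hnRNPK RIP, each against its own input; the dashed line is the threshold of 2 and the dotted line is -2. KRT80 lies above 2 in all 3 RIPs, and KRT7, KRT18 and KRT81 lie under -2 in both hnRNPK RIPs but near 0 in the FLAG-CBFB RIP.

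Because hnRNPK prefers C-rich RNA, runs of 4 or more C were counted in the longest protein-coding transcript of each keratin, in GENCODE 29. The KRT80 transcript, of 3894 bases, held 35 such runs, 8.99 per kb, which is more than in 88.6% of the 10506 analysed protein-coding genes with a transcript. The median of those genes was 3.47 runs per kb, and that of the 741 with an hnRNPK enrichment above 2 was 8.41. Of the 35 runs in KRT80, 24 lay in the 3′ UTR, 9 in the coding sequence and 2 in the 5′ UTR.

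The other analysed keratins ranged from 0.471 runs per kb in KRT10 upward, and KRT83 held 15 runs in 1875 bases. KRT5 held 4.35, KRT18 3.54, KRT7 5.13 and KRT81 6.22 runs per kb. Density did not order the keratins by enrichment. KRT83 had nearly as many runs per kb as KRT80 but a centred value of 0.37 ± 0.09, and -0.68 with a pseudocount of 0.1. In CPM outside the mitochondrial genome KRT83 was at 0.320 and 0.155 of the parental input, where the median analysed gene was at 0.362 and 0.367. KRT81 had more runs per kb than KRT5 but a lower centred value. Across the 14 keratins, Spearman's rho between runs per kb and the centred hnRNPK enrichment was 0.16, and across the 10506 genes 0.23. The centred value of weak keratins rests partly on the pseudocount, and no rho was taken on counts alone. Both rhos describe genes of the same libraries, which share depth and base composition and are not replicates. The longest transcript need not be the main one in the cells. That of KRT15 had 5237 bases, with 27 of its 31 runs in the 5′ UTR. The length that RSEM used for KRT15 was 917 to 1478 bases in the 5 libraries. At least 1 run was present in 98.4% of the genes, so a run by itself sets no gene apart.

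The stretch of 30 coding bases with the most C in such runs is shown for KRT5, which was higher in the hnRNPK RIPs, and for KRT7, KRT81 and KRT18, which were lower. Capitals mark the runs of 4 or more C, the sequences are 5′ to 3′ on the transcript strand, and coordinates are GRCh38 from GENCODE 29, since the deposited tables (made on hg19) hold none.
KRT5: ctgactCCCCtcaacctgcaaatcgaCCCC
KRT7: CCCCgctgcggctggacgccgaCCCCtccc
KRT81: ctcacgCCCCtcaacctggagatcgaCCCC
KRT18: gCCCCCaaatctcaggacctcgccaagatc
The stretches of KRT5 (chr12:52519820-52519849, minus strand, exon 1), KRT7 (chr12:52233517-52233546, plus strand, exon 1) and KRT81 (chr12:52291175-52291204, minus strand, exon 1) hold 8 C in runs each. That of KRT18 (chr12:52951538-52951567, plus strand, exon 5) holds 5. A match is a description of letters and not a site of binding.

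KRT5 was the second keratin that was higher in the hnRNPK RIPs, with far more RNA behind it. Its FPKM was 1974 in the FLAG-CBFB cell input, 1246 in the FLAG-CBFB RIP, 1639.8 in the parental input, with 419.8 and 484 in the hnRNPK RIPs. The 3 RIPs were each lower than their input in FPKM, but by less than the mean of all genes. Its centred enrichment was 0.68 in the RIP of FLAG-CBFB and 0.65 and 0.92 in the hnRNPK RIPs, with a mean of 0.78 ± 0.19 (SD, n = 2), which is under the threshold of 2.

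In CPM outside the mitochondrial genome, KRT5 was 1.63-fold (1.63 to 1.64) higher in the RIP of FLAG-CBFB, and 1.29-fold (1.28 to 1.30) and 1.89-fold (1.87 to 1.90) higher in the hnRNPK RIPs. KRT5 and KRT80 were the only analysed keratins above their input in all 3 RIPs on that scale. In edgeR's quasi-likelihood test KRT5 was higher in the hnRNPK RIPs by 1.83 (SE 0.34, adjusted p = 7.34e-07). It held rank 1, 2 or 3 among the analysed keratins in each kind of RIP under every alternative run, though with no centring or with centring over all genes its value was below 0.

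KRT14, the type I partner of KRT5, was a weak transcript whose value depended on the pseudocount. Its FPKM was 6.78 in the FLAG-CBFB cell input and 4.26 in the RIP of FLAG-CBFB, and 1.81 in the parental input against 0.08 and 0.15 in the hnRNPK RIPs. The hnRNPK values rested on 12 and 19 counts. The centred enrichment was 0.78 in the RIP of FLAG-CBFB and 1.31 ± 0.11 in the hnRNPK RIPs, yet the latter was 0.27 with a pseudocount of 0.1. In CPM outside the mitochondrial genome KRT14 was at 0.265 and 0.549 of the parental input, where the median analysed gene was at 0.362 and 0.367. In edgeR's quasi-likelihood test the log2 difference of KRT14 was -0.19 (SE 0.71, adjusted p = 0.866).

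KRT15, a type I keratin of basal and progenitor cells, was the lowest keratin in the FLAG-CBFB RIP. Its FPKM was 1992 in the FLAG-CBFB cell input and 314 in the RIP of FLAG-CBFB, and 425 in the parental input against 33.2 and 67.3 in the hnRNPK RIPs. The FLAG-CBFB enrichment was -1.32, and the hnRNPK values of -1.03 and 0.04 differed the most of all analysed keratins, at -0.50 ± 0.76 (SD, n = 2).

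The hnRNPK direction of KRT15 depended on the scale. In edgeR's quasi-likelihood test it was higher by 1.02 (SE 0.35, adjusted p = 0.0113), on counts of 27165 in the input and 5052 and 5827 in the RIPs. Its effective length, which RSEM sets from the mix of isoforms in a library, was 917 bases in the parental input, 1478 in the first hnRNPK RIP and 957 in the second. FPKM divides by that length, and with 1 length per gene, an alternative added after the data were seen, the centred value was -0.18. The call was lost with DESeq2 (adjusted p = 0.0531) and with no filter on low counts (edgeR, adjusted p = 0.0647), in a range of 0.00692 to 0.0647 over the alternatives.

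KRT17, a type I keratin induced in wounded epithelium, was low in both kinds of RIP. Its FPKM was 974 in the FLAG-CBFB cell input and 195 in the RIP of FLAG-CBFB, and 539.9 in the parental input against 34.9 and 20.4 in the hnRNPK RIPs. The centred enrichment was -0.97 in the RIP of FLAG-CBFB and -1.64 ± 0.48 (SD, n = 2) in the hnRNPK RIPs. Its edgeR log2 difference was -0.59 (SE 0.33, adjusted p = 0.145), and it passed only with no filter on low counts (adjusted p = 0.0456 in a range of 0.0456 to 0.241).

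The entry of KRT17 cannot be cleanly parted from that of JUP. In these tables, JUP, the gene of plakoglobin, holds a transcript that GENCODE 29 gives to KRT17, and 91.3% of the 50-base stretches of the KRT17 transcript also occur under JUP. JUP had an enrichment of 1.45 in the RIP of FLAG-CBFB and of 2.36 ± 0.42 in the hnRNPK RIPs. The sum of both entries, an alternative added after the data were seen, was at -0.39 and at 0.08 ± 0.44. How the reads were divided between them was not tested.

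KRT6A and KRT16 are a stress-induced pair of type II and type I chains, and KRT6A had an enrichment closer to 0 with FLAG-CBFB than with hnRNPK. For KRT16 that order held in the second hnRNPK repeat (-0.625) but not in the first (-0.14). KRT6A was at 411 FPKM in the FLAG-CBFB cell input, 163 in the FLAG-CBFB RIP, 607 in the parental input, with 32.15 and 24.9 in the hnRNPK RIPs. Its centred enrichment was 0.01 in the RIP of FLAG-CBFB and -1.73 ± 0.20 in the hnRNPK RIPs, and its edgeR log2 difference was -0.71 (SE 0.32, adjusted p = 0.066), which passed only with no filter on low counts (0.0138, in a range of 0.0138 to 0.12). KRT16 was weaker, at 10.5, 4.35, 11.8, 0.91 and 0.30 FPKM in the same order, with enrichments of 0.24 and -0.38 ± 0.34 and an edgeR log2 difference of -0.58 (SE 0.44, adjusted p = 0.315). Of the 50-base stretches of KRT16, 22.0% occur in other genes, chiefly KRT16 pseudogenes and KRT14.

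The simple epithelial keratins KRT7, KRT8 and KRT18 fell together in the hnRNPK RIPs. KRT7 was at 892 FPKM in the FLAG-CBFB cell input, 371 in the FLAG-CBFB RIP, 2776 in the parental input, with 87.8 and 62.4 in the hnRNPK RIPs. KRT18, the type I partner of KRT8, was at 305, 121, 702, 21.35 and 19.6 FPKM in that order. KRT8 was at 76.6, 45.9, 196, 10.7 and 7.01 FPKM. Both hnRNPK RIPs were lower than the parental input for each of the 3, by between 18.3-fold and 44.5-fold in FPKM. Most genes were lower in FPKM there, 94.4% and 95.2% of all analysed genes in the first and second repeat. The median log2 ratio of all analysed genes was -2.73 and -2.78, on FPKM plus 1 without centring.

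Their centred enrichments in the hnRNPK RIPs were -2.57 ± 0.29 for KRT7, -2.39 ± 0.03 for KRT18 and -1.70 ± 0.34 for KRT8 (SD, n = 2). In the FLAG-CBFB RIP they were 0.08, 0.01 and 0.61. In edgeR's quasi-likelihood test KRT7 fell by 1.44 on the log2 scale (SE 0.31, adjusted p = 2.79e-05), KRT18 fell by 1.33 (SE 0.32, adjusted p = 0.000209) and KRT8 fell by 1.22 (SE 0.34, adjusted p = 0.0015). KRT7, KRT18 and KRT81 were the 3 keratins under -2, against 6.24% of all analysed genes, and GAPDH was lower than each of them. That count depended on the scale: with a pseudocount of 0.1 they were at -1.79, -1.65 and -1.47, and none of them was under -2 with TMM, with DESeq2 size factors or with the other input either. With 1 length per gene they were at -2.64, -2.46 and -2.31, and KRT8 was under -2 as well (-2.26). Other keratins were under -2 on some scales: KRT10 with TMM (-2.13), and KRT15 (-2.75) and KRT17 (-2.52) with the other input. The median analysed gene was at -0.60 with TMM over all libraries, against -0.11 on the centred scale.

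The FLAG-CBFB values of KRT8 and KRT7 depended on length. The effective length of KRT8 was 1455 bases in the input and 894 in the RIP, and with 1 length per gene its enrichment was -0.08, as was that of KRT7. Shared sequence is a further limit for KRT8 and KRT18: 32.6% of the 50-base stretches of KRT8 and 28.9% of those of KRT18 occur in other genes, mostly their pseudogenes. KRT8 (chr12:52897187-52949954, minus strand) also overlaps KRT18 (chr12:52948871-52952901, plus strand), and nothing in the sources used here says that the counting used strand.

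KRT10, the type I keratin of suprabasal cells, was likewise lower in the hnRNPK RIPs, on fewer counts. It was at 5.19 FPKM in the FLAG-CBFB cell input, 2.01 in the FLAG-CBFB RIP, 14.6 in the parental input, with 0.29 and 0.31 in the hnRNPK RIPs. These last values rested on 58 and 54 counts. The centred enrichment was 0.30 in the RIP of FLAG-CBFB and -0.94 ± 0.07 in the hnRNPK RIPs, and in edgeR's quasi-likelihood test KRT10 fell by 1.84 on the log2 scale (SE 0.43, adjusted p = 9.52e-05). In CPM outside the mitochondrial genome it was at 0.112 and 0.137 of the parental input, the lowest of the analysed keratins in the first repeat.

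**Figure D4:**
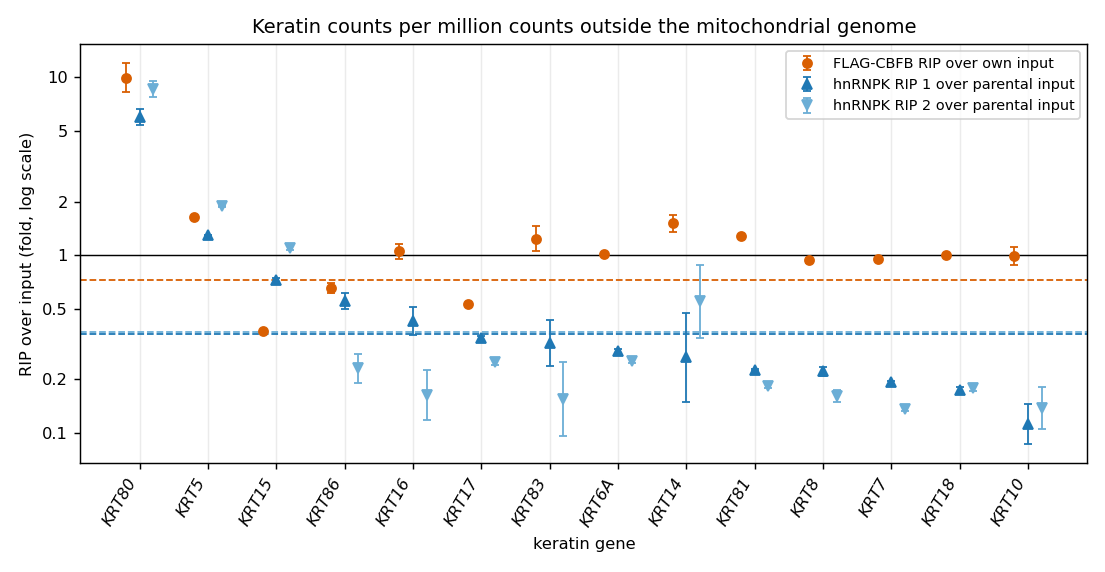
Points give, on a log axis, RIP over input of each analysed keratin in CPM outside the mitochondrial genome, with no pseudocount. Bars are 95% counting intervals, and dashed lines are the medians of all analysed genes, at 0.728 for the RIP of FLAG-CBFB and 0.362 and 0.367 for the hnRNPK RIPs. KRT80 lies between 6.001 and 9.96 in the 3 RIPs.

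KRT81, KRT83 and KRT86 are hair keratins of near-identical sequence, and KRT81 was among the strongest keratins of these cells. KRT81 was at 814 FPKM in the FLAG-CBFB cell input, 412 in the FLAG-CBFB RIP, 1736 in the parental input, with 68.6 and 48.45 in the hnRNPK RIPs. Its centred enrichment was 0.36 in the RIP of FLAG-CBFB and -2.24 ± 0.30 (SD, n = 2) in the hnRNPK RIPs. In edgeR's quasi-likelihood test it fell by 1.12 on the log2 scale (SE 0.31, adjusted p = 0.00149).

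KRT83 was at 2.70, 1.32, 4.76, 0.27 and 0.11 FPKM in the same order of libraries, with enrichments of 0.67 and 0.37 ± 0.09. In CPM outside the mitochondrial genome it was at 0.320 and 0.155 of the parental input in the hnRNPK RIPs. The median analysed gene was at 0.362 and 0.367 there. KRT86 was at 27.2, 7.01, 21.45, 2.07 and 0.77 FPKM, with enrichments of -0.48 and -0.62 ± 0.51. Neither passed edgeR's quasi-likelihood test, with log2 differences of -0.90 (SE 0.54, adjusted p = 0.187) and -0.18 (SE 0.37, adjusted p = 0.747).

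The transcripts of KRT81 and KRT86 were the same at 90.5% of 1784 aligned bases, and those of KRT81 and KRT83 at 90.6% of 1752. Of the 50-base stretches of KRT81, 44.6% occur in another gene of the tables. A stretch of 30 coding bases of KRT81 with the most differences is shown, since reads from it can tell the genes apart. Capitals mark the bases that differ from KRT81.
KRT81: gctatgtgaaggcattggggctgtgaatgt
KRT83: gctGtgtgaaggTGttgAAgctgtgaatgt
KRT86: gctGtgCgaGggcGtCggCTcGgtgaatgt
They lie at chr12:52286793-52286822 (minus strand, exon 8), chr12:52315314-52315343 (minus strand, exon 8) and chr12:52308233-52308262 (plus strand, exon 10) in GRCh38. KRT83 differs from KRT81 at 5 of the 30 bases and KRT86 at 8.

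Summing the 3 hair keratins moved their joint value little from that of KRT81 alone, which held at least 96.5% of the summed counts in each library. The sum had an enrichment of 0.34 in the RIP of FLAG-CBFB and of -2.23 ± 0.31 in the hnRNPK RIPs. KRT86 had a second identifier in the tables (ENSG00000258832), which was listed with 0 counts in the FLAG-CBFB cell input, 797 in the FLAG-CBFB RIP, 1846 in the parental input, then 0 and 118 in the hnRNPK RIPs. The second hnRNPK RIP gave both identifiers the same 118 counts.

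With both identifiers summed, an alternative added after the data were seen, KRT86 was at 0.24 in the RIP of FLAG-CBFB and at -1.12 ± 0.14 in the hnRNPK RIPs. The first of these has the opposite sign to the value of -0.48 under its own identifier. A value for either identifier by itself therefore depends on how reads were divided between them.

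KRT6A, KRT6B and KRT6C form the other near-identical group, and KRT6A held at least 99.1% of the summed counts in each library. Their transcripts were the same at 93.2% (KRT6A and KRT6B) and 96.0% (KRT6A and KRT6C) of aligned bases. KRT6B had 515, 106, 147, 11.6 and 2.57 estimated counts in the 5 libraries, and KRT6C 255, 81.8, 224, 15.2 and 9.35, and both had a mean FPKM under 1. A stretch of 30 coding bases with the most differences from KRT6A follows, with the differing bases in capitals.
KRT6A: atcgatcccaccatccagcgggtgcgggct
KRT6B: atTgaCcccGccatccagcgggtgcgggcC
KRT6C: atTgaCcccGccatccagcgggtgcgggcC
They lie in exon 1 of each gene, at chr12:52492706-52492735, chr12:52451596-52451625 and chr12:52473255-52473284 on the minus strand of GRCh38. KRT6B and KRT6C each differ from KRT6A at 4 bases and share these 30. The sum of the 3 was at 0.01 in the RIP of FLAG-CBFB and -1.73 ± 0.20 in the hnRNPK RIPs, as KRT6A was alone.

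**Figure D5:**
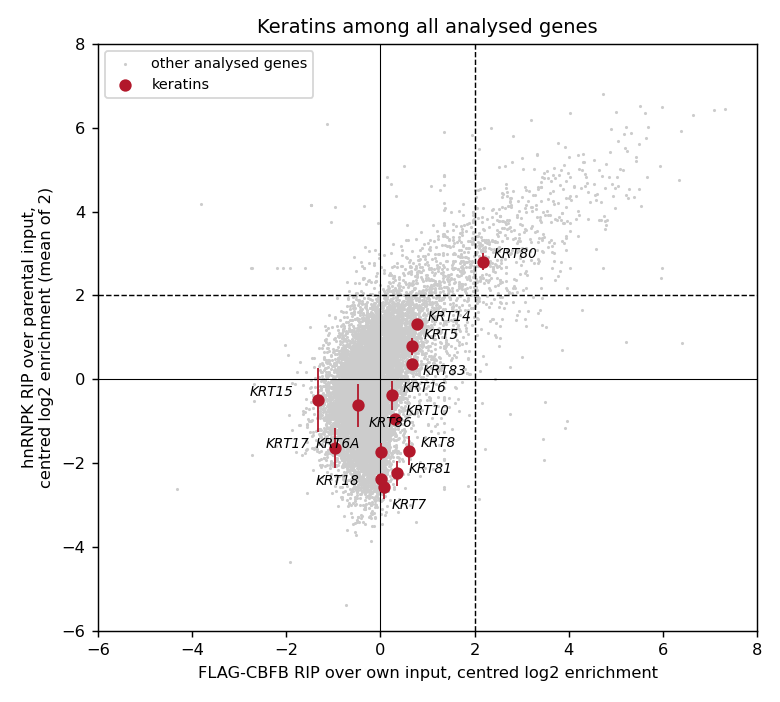
Each point is a gene that averaged 1 FPKM or more, with its centred log2 enrichment in the FLAG-CBFB RIP (1 library) on the x axis and in the hnRNPK RIPs (mean of 2) on the y axis; keratins are in red with bars of 1 SD between the repeats, and 2 genes fall outside the axes. KRT80 is the only keratin past both dashed thresholds of 2.

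The remaining 41 keratins averaged under 1 FPKM. The highest of them was KRT6B at 0.778, 18 had a count in some library, and 23 had 0 counts in all 5. A count of 0 in the smallest library allows a share of up to 4.3e-06% of its counts, for counting error alone.

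In the FLAG-CBFB RIP, 11 of the 14 analysed keratins had a centred enrichment above 0 and 3 (KRT15, KRT17 and KRT86) were below 0, while 64.9% of all analysed genes were below 0. Their median was 0.27, and that of all analysed genes was -0.19. In the hnRNPK RIPs, 4 were above 0 and 10 below, against 53.2% of all analysed genes below 0, with medians of -0.78 and -0.11. By type, the medians were 0.12 (type I) and 0.49 (type II) with FLAG-CBFB, and -0.72 and -1.16 with hnRNPK. The FLAG-CBFB enrichment was the higher one for 10 of the 14, against 46.4% of all analysed genes. In CPM outside the mitochondrial genome, 8 keratins were above their input in the RIP of FLAG-CBFB and 2 (KRT80 and KRT5) in the mean of the hnRNPK RIPs. The share of all analysed genes above their input on that scale was not counted, and their median with FLAG-CBFB was 0.728. Of the 8, KRT18 (1.001-fold, 95% counting interval 0.982 to 1.02) was not apart from its input by counting error. Nor were KRT6A (1.009-fold, 0.996 to 1.022) and KRT16 (1.05-fold, 0.954 to 1.158). The count of centred values above 0 in the FLAG-CBFB RIP also rests on values close to it, as those of KRT6A, KRT18 and KRT7 were under 0.1.

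The inputs themselves differed in their keratins, with no immunoprecipitation. On the log2 scale of FPKM plus 1, KRT15 was higher by 2.23 and KRT14 by 1.47 in the FLAG-CBFB cell input than in the parental input. KRT7 was lower there (-1.64), as were KRT8 (-1.34), KRT10 (-1.34), KRT80 (-1.31), KRT18 (-1.20) and KRT81 (-1.09). Thus 8 of the 14 differed by more than 1, against 9.69% of all analysed genes. Beyond 2 there was 1 keratin, KRT15, against 1.33% of the genes.

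KRT15 and KRT14 are basal keratins, while KRT7, KRT8 and KRT18 are simple epithelial ones, and KRT5 differed by 0.27. There was 1 input per cell line, so these values have no replicate error and the cell line and the library cannot be told apart. In bulk RNA, fewer cells of a kind and less RNA per cell cannot be told apart either. Each RIP was set against the input of its own cells, and with the inputs exchanged the FLAG-CBFB value of KRT15 went from -1.32 to 0.93 and that of KRT7 from 0.08 to -1.53. The hnRNPK values moved too: KRT7 went from -2.57 to -0.96, KRT8 from -1.70 to -0.39 and KRT15 from -0.50 to -2.75. The sign turned for KRT10, from -0.94 to 0.36, and for KRT14, from 1.31 to -0.19. The edgeR calls of KRT7, KRT8 and KRT10 as lower are against the parental input, and were not tested against the other one.

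A list of 29 genes, called partners here for short, held genes of desmosomes, hemidesmosomes and plakins. It also held other intermediate filament genes (VIM, NES, SYNM and the lamins), which are not partners of keratin filaments. Of the 29, 28 were found in the tables and 22 averaged 1 FPKM or more, 4 of them other intermediate filament genes. In the FLAG-CBFB RIP 0 of the 22 were above 2, against 4.37% of all analysed genes, and 19 were below 0, against 64.9%, with a median of -0.96 against -0.19. In the hnRNPK RIPs 1 was above 2, against 8.2%, and 18 were below 0, against 53.2%, with a median of -1.04 against -0.11. The counts above 2 are near the background in both. In edgeR's quasi-likelihood test, 2 of 25 tested were higher in the hnRNPK RIPs, against 21.9% of all genes tested, and 5 were lower, against 15.8%, a share near the background.

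Desmosomes anchor keratin filaments at cell contacts, and JUP and DSC3, a desmosomal cadherin, were the 2 higher ones. JUP was at 98.4 FPKM in the parental input, with 102 and 63.8 in the hnRNPK RIPs, and had a log2 difference of 3.47 in edgeR's quasi-likelihood test (SE 0.39, adjusted p = 1.32e-17), within the limit on shared reads with KRT17 given above. DSC3 was higher by 1.63 (SE 0.38, adjusted p = 0.000139) and had the second highest centred value at 0.86, ahead of DSC2 at 0.41. DSC2 was a weak transcript, at 5.11 FPKM in the parental input, with 0.37 and 0.23 in the hnRNPK RIPs. Its log2 difference in edgeR's quasi-likelihood test was -0.35 (SE 0.40, adjusted p = 0.522). The centred values of DSC3 and DSC2 were -1.08 and -0.67 in the FLAG-CBFB RIP, in which JUP (1.45), VIM (1.23) and CD151 (0.27) were highest.

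Hemidesmosomes anchor the same filaments at the basement membrane, and 3 of the 8 tested genes of hemidesmosomes and plakins (DST, ITGA6 and COL17A1) were lower in the hnRNPK RIPs, against the same 15.8% of all genes. COL17A1, a transmembrane collagen, was at 156 FPKM in the parental input, with 3.57 and 4.48 in the hnRNPK RIPs, and fell by 1.22 in edgeR's quasi-likelihood test (SE 0.34, adjusted p = 0.00139). Of the other intermediate filament genes, LMNB1 fell by 2.06 (SE 0.35, adjusted p = 3.96e-08) and VIM by 0.89 (SE 0.36, adjusted p = 0.0346). The lowest centred values in the hnRNPK RIPs were those of LMNB1 (-2.35), COL17A1 (-2.33) and LMNA (-1.93), and in the FLAG-CBFB RIP those of DSP (-1.59), PPL (-1.44) and DSG2 (-1.31).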

How the data were processed

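RNA from 5 MCF10A samples was sequenced after a TruSeq mRNA preparation. The submitters' processing notes name Trimmomatic, STAR, RSEM and build hg19, with no versions. Per the file headers, the authors deposited RSEM gene tables with expected counts (estimated counts, which may be fractional where reads match several genes), FPKM and TPM. FPKM (scaled by effective length and by the reads of all genes) was used for enrichment, and deposited expected counts, rounded, for tests; TPM was not used. Samples were grouped by title.

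Identifiers were named with GENCODE 29: 50276 by gene ID and 1220 through transcripts of a single gene. All 55 keratin symbols matched a table of gene names. Keratins with a mean FPKM of at least 1, KRT6A to KRT6C and KRT81, KRT83 and KRT86 were named, with RUNX1, GAPDH and the highest and lowest 3 partners in each RIP. KRT19 was named as a marker, and partners that passed the test were named after their values were seen. The members and lists were chosen with earlier results of these data known.

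Enrichment used a pseudocount of 1 and centring on the mean of 11764 genes. The FLAG-CBFB comparison, with 1 library an arm, had no test. The hnRNPK comparison used the quasi-likelihood test of edgeR 4.0.16 (TMM, filterByExpr, Benjamini-Hochberg), whose SE is the log2 difference over the root of F. It was checked on simulated counts. The TMM factors were 5.75, 0.443 and 0.392, and the fit gave all genes the trend of the spread. DESeq2 1.42.0 was an alternative, with others of pseudocount, centring, filter, length, input and paralogue sums. Counting intervals are at 95%. Transcripts were aligned with Biopython 1.88. A sequence stretch of KRT80 is not reported here.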

Additional observations from a re-analysis of the deposited data

Results flagged for a closer look

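Of the 14 analysed keratins, 7 had a centred enrichment above 0 in the FLAG-CBFB RIP and below 0 in both hnRNPK RIPs. The FLAG-CBFB value exceeded the hnRNPK mean by 2.64 for KRT7, 2.60 for KRT81, 2.40 for KRT18, 2.31 for KRT8, 1.74 for KRT6A, 1.24 for KRT10 and 0.62 for KRT16. The difference was not tested, as the FLAG-CBFB arm had 1 library. The share of all analysed genes with this pattern of signs was not counted, here or for the alternatives below. Whether 7 of 14 is unusual is therefore not known. Each arm taken singly, 64.9% of all analysed genes were below 0 with FLAG-CBFB and 53.2% with hnRNPK (mean of the repeats). The FLAG-CBFB values of KRT6A and KRT18 were both 0.01, so their sign has no weight.

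The opposite signs depended on the scale. All 7 kept them with a pseudocount of 0.1, with centring on the median, with TMM and with DESeq2 size factors. In CPM outside the mitochondrial genome 4 of 7 had opposite signs, as with FPKM rescaled without mitochondrial genes. With 1 length per gene it was 5 of 7, with the inputs exchanged 2 of 7, and with no centring or centring over all genes 0 of 7.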

How the results depend on the processing

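The number of keratins above 2 was 1 in each kind of RIP. It was 0 in both with no centring, with centring over all genes and, where KRT80 was left out, at a mean FPKM of at least 5. Of all analysed genes, 1.59% (FLAG-CBFB) and 0.757% (hnRNPK) were above 2 with no centring. The shares were 1.99% and 1.56% with centring over all genes, and 5.46% and 10.5% at a mean FPKM of at least 5. In the FLAG-CBFB RIP the number of keratins was also 0 with FPKM rescaled without mitochondrial genes (3.39% of all analysed genes). With the other input (4.22% of them) the 1 keratin was KRT14 (2.28) rather than KRT80. In the hnRNPK RIPs the number was 2 at a threshold of 1, and 1 without either repeat. The share of all analysed genes above 1 was not counted. The keratin added at a threshold of 1 was KRT14, at 1.31, which was 0.27 with a pseudocount of 0.1. The median keratin enrichment in the FLAG-CBFB RIP, 0.27, was 0.31 with a pseudocount of 0.1, -1.07 with no centring, 0.46 with centring on the median, 0.01 with FPKM rescaled, -0.75 with centring over all genes, 0.12 at a mean FPKM of at least 5, -0.10 with the other input, 0.36 with TMM, 0.45 with DESeq2 size factors, 0.01 in CPM outside the mitochondrial genome and 0.12 with 1 length per gene. In the hnRNPK RIPs the median of -0.78 was, in the same order, -0.84, -3.43, -0.68, -1.14, -2.82, -1.21, -0.67, -1.03, -0.77, -1.90 and -0.85, and -1.29 with paralogues summed. Leaving out either repeat gave -1.01 to -0.94. The last 2 scales were chosen after the data were seen. The median of all analysed genes moved as well. With FLAG-CBFB it went from -0.19 to -1.53 with no centring, -1.21 with centring over all genes and -0.43 with FPKM rescaled. It was -0.46 in CPM outside the mitochondrial genome, but -0.21 at a mean FPKM of at least 5 and -0.17 with the other input. With hnRNPK it went from -0.11 to -2.75, -2.15 and -0.75 in the same order, and was -1.47 in that CPM. Each keratin median is best read against it. The cause of these moves was not tested, save that removing the centring shifts every gene alike. Counts of keratins called by edgeR stayed within 1.5 times: 5 to 7 lower and 2 to 3 higher. Over all genes the calls were 3648 higher and 2623 lower, 3187 and 1696 with DESeq2, and 3328 and 3443 with no filter on low counts, where lower calls outnumbered higher ones. With no filter on low counts, KRT6A and KRT17 were gained and KRT15 was lost. Leaving out a repeat left no residual degrees of freedom for the test, so it was not run. No paired analysis was possible because no 2 replicate numbers occur in both an input group and a RIP group.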
